A study of Mus musculus with 6 samples.

Results

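Mitochondrial ribosomal protein genes are the nuclear genes whose symbols begin with Mrps (proteins named after the small subunit) or Mrpl (proteins named after the large subunit) and end in a number, with or without a letter. Pseudogenes were left out, and for the 1 symbol carried by more than 1 gene identifier, Mrps23, the row with the highest mean was taken. The rule gave 77 genes, 29 Mrps and 48 Mrpl, of 43548 gene identifiers in the expression table. They were measured in Met-1 TripZ-200c cells, a mammary carcinoma line of the FVB/nJ mouse strain that came from an advanced tumor of MMTV-PyMT mice, in which the mammary promoter of MMTV drives the polyoma middle T antigen. The cells carry an inducible lentiviral vector with the precursor of miR-200c and were taken forward as 1 sorted clone, so both groups share the line, the clone and the vector. In 3 libraries the cells received vehicle (water), and in 3 libraries they received 1 µg/mL doxycycline (Dox), in both cases for 48 h. Dox switches on miR-200c here, a microRNA known to repress Zeb1 and Zeb2, and Dox is also known as an antibiotic that acts on the mitochondrial ribosome. Cells with an empty vector were not analysed here, so the effects of Dox itself and of miR-200c cannot be told apart in any value given here.

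Mitochondria carry a small genome of their own that encodes core subunits of the respiratory chain and ATP synthase, and these are made inside the organelle by a dedicated ribosome. Its rRNAs come from the mitochondrial genome, whereas each of its proteins is encoded in the nucleus, made in the cytosol and imported. The small subunit holds the mRNA and reads the codons, and the large subunit joins the amino acids and releases the new chain at the inner membrane. Many of the proteins descend from those of the bacterial ribosome, and others were gained in the mitochondrial line. The labels of the series name the libraries as biological triplicates plated in triplicate from the same clone, so the p-values measure the spread between these cultures.

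Expression was given as FPKM (fragments scaled to transcript length and to the mapped reads of the library), which allows levels to be compared between genes per unit of length. The sum of FPKM was 800267 to 815139 per library, and 16867 to 18012 genes were above 0. The read depth is unknown, and the ratios of the lowest values put the relative depth of the libraries between 0.917 and 1.49. The induction was visible in the libraries: Zeb1, the repressor of epithelial genes, was 41.0, 42.1 and 42.3 FPKM without Dox and 19.8, 20.3 and 23.6 FPKM with Dox (log2 fold change −0.98, SE 0.07, limma adjusted p = 0.000362). Zeb2 fell by 1.81 on the log2 scale (SE 0.08, limma adjusted p = 4.48e-05), and Cdh1, the gene of E-cadherin, was 0.0419 to 0.0776 FPKM without Dox and 0.554 to 1.24 FPKM with Dox, with a mean below the minimum of 1 FPKM that was set for the test. Of the 5 mammary carcinoma markers, 3 moved between the groups. Krt18 rose from 93.2 to 386.1 FPKM and Epcam from 0.128 to 4.06 FPKM, while Vim fell from 3961 to 3104 FPKM (limma adjusted p = 3.61e-06, 0.000526 and 0.000566). Krt19 was listed at 0 and Krt8 stayed under 1 FPKM. Of the markers of other cell types, Cd3e was listed at 0, Ptprc and Pecam1 were at most 0.161 FPKM, and Cdh5 and the macrophage genes Cd68 and Lyz2 were measured at 0.940 to 11.3 FPKM with overlapping groups. Pdgfrb, a gene of mesenchymal cells, fell from 32.4 to 15.5 FPKM (limma adjusted p = 9.78e-05). The summed level was 3933 to 4152 FPKM without Dox and 3432 to 3598 FPKM with Dox for the carcinoma markers, and 45.4 to 49.8 FPKM and 27.6 to 28.6 FPKM for the 7 markers of other cell types. Vim made up most of the first sum and Pdgfrb most of the second, so the sums do not show how the other markers moved. The part of these shifts in the values below was not tested. All 37 genes of the mitochondrial genome were listed at 0 in every library, so the mitochondrial rRNAs and mRNAs are not measured here. In such bulk samples of a clone, fewer cells that express a gene and less of its RNA per cell cannot be told apart.

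All 77 mitochondrial ribosomal protein genes were above 0 in all 6 libraries and passed the minimum mean of 1 FPKM. Their median level was 66.4 FPKM, against 22.8 FPKM for the 12879 genes tested, and 47 were above 50 FPKM and 18 above 100 FPKM. Mrpl12, which encodes the stalk protein that contacts translation factors, was the highest, with 368.5, 373 and 379.6 FPKM without Dox and 383.7, 374.7 and 374.3 FPKM with Dox. The groups overlapped and differed by 0.01 on the log2 scale (95% interval −0.05 to 0.08). Mrpl38, a protein of the central protuberance of the large subunit, was next at a mean of 259 FPKM. Of the Mrps genes, Mrps21 (mean 220.1 FPKM) and Mrps7 (mean 207 FPKM), both of bacterial descent, were the highest. The Mrps21 libraries ran from 216.5 to 235.1 FPKM without Dox and from 194.8 to 231.5 FPKM with Dox, and those of Mrps7 from 199.7 to 209.8 FPKM and from 205.9 to 211.9 FPKM. Both pairs of groups overlapped.

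The lowest levels were those of Mrpl23, Mrps31, Mrpl35 and Mrps33. Mrpl23, whose protein lies at the exit of the peptide tunnel, was the only member under 10 FPKM, with 2.39, 1.56 and 1.85 FPKM without Dox and 1.28, 2.05 and 0.993 FPKM with Dox. Its groups overlapped, and its 95% interval on the log2 scale ran from −1.20 to 0.33. The processed pseudogene Mrpl23-ps1 was at a mean of 48.7 FPKM in the same libraries, and 68.9% of the longest coding transcript of Mrpl23 matched its sequence at 95% identity or more. How the counting divided reads between such copies was not given in the sources used here, so the level of Mrpl23 is uncertain. Mrps31 was at a mean of 11.7 FPKM, Mrpl35 at 12.1 FPKM and Mrps33 at 13.7 FPKM, each with overlapping groups. Mrps33 shares 29% of its coding transcript with Gm5776, a copy at 59.1 FPKM.

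With Dox, 6 of the 77 genes rose and 1 fell at an adjusted p under 0.05 (limma, Benjamini-Hochberg over all 12879 genes tested), and 70 did not pass. The called share was 9.09% of the members and 15% of all genes tested (7.06% higher and 7.97% lower). The difference between these shares was not tested. The genes that rose were Mrps18b, Mrpl21, Mrps30, Mrpl38, Mrps5 and Mrpl40, by 1.11-fold to 1.32-fold, and the gene that fell was Mrps6, to 0.722 of its level. No change reached 1.5-fold. The estimate was above 0 in 54 of the 77 genes (70.1%), against 50.8% of all genes tested, and the median log2 fold change was 0.04 for the members and 0.0039 for all genes tested. The groups did not overlap in 11 genes that were higher and 2 that were lower with Dox, against 17.4% and 17.6% of all genes. At an unadjusted p under 0.05 there were 14 members (18.2%), against 29.2% of all genes tested. The plot of level against log2 fold change shows the members as a narrow band around 0.

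**Figure D1:**
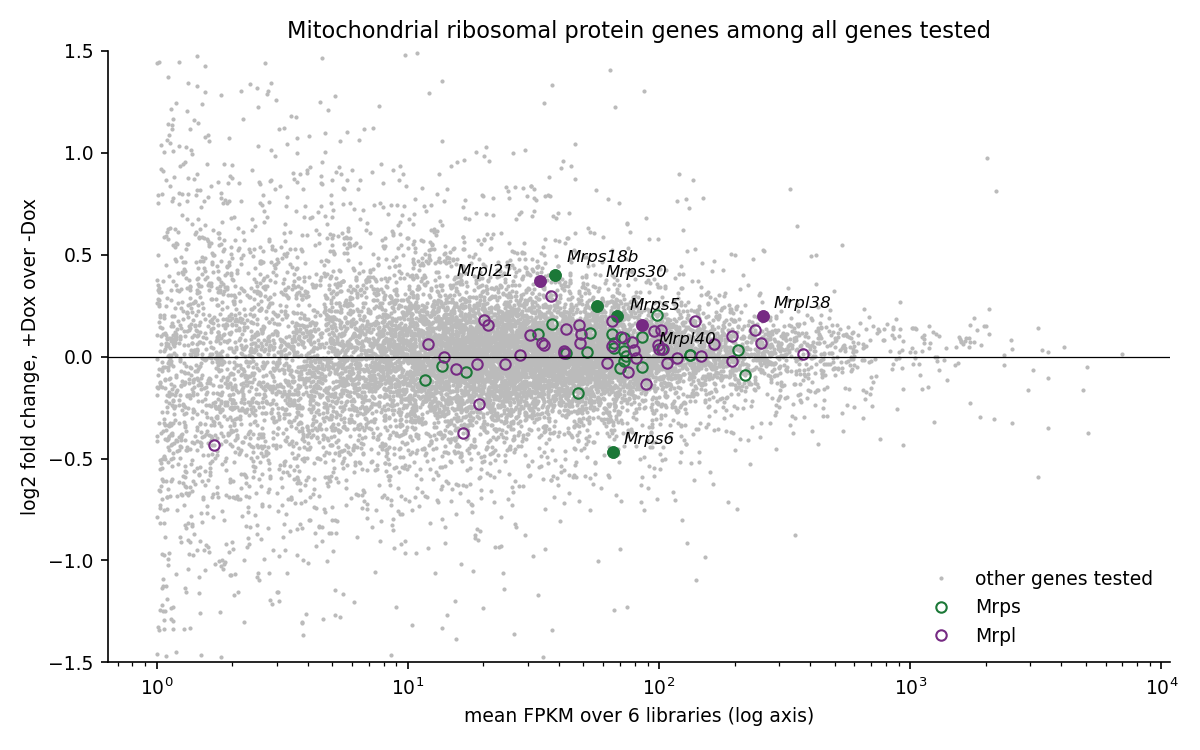
Each point is a gene, with its mean FPKM over the 6 libraries on a log axis and its log2 fold change with Dox over without Dox, on log2(FPKM + 0.1). Green circles are Mrps genes, purple circles are Mrpl genes and filled circles passed the test; 152 genes beyond 1.5 on the log2 scale are not drawn. Besides the 7 named genes, most members lie close to 0, and the lowest of them, Mrpl23, stands apart at 1.69 FPKM.

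Of the small-subunit proteins, Mrps18b showed the largest increase. Mrps18b, Mrps18a and Mrps18c all descend from the bacterial S18 protein, but Mrps18c keeps its place in the small subunit, Mrps18b takes another place there and Mrps18a sits in the large subunit. Mrps18b was 33.4, 31.6 and 34.1 FPKM without Dox and 41.5, 45.0 and 44.5 FPKM with Dox, so every library with Dox was above every library without. The log2 fold change was 0.40 (SE 0.05, limma adjusted p = 0.0040). Mrps18a was 139, 129.5 and 127 FPKM without Dox and 122, 139 and 137 FPKM with Dox (log2 fold change 0.01, 95% interval −0.14 to 0.15). Mrps18c was 47.1, 55.7 and 50.2 FPKM without Dox and 48.0, 58.5 and 59.4 FPKM with Dox (log2 fold change 0.11, 95% interval −0.12 to 0.35). The groups of Mrps18a and of Mrps18c overlapped, and the difference between the changes of these paralogs was not tested.

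Mrps18b lies at chr17:35910379-35916389 on the minus strand of GRCm38 (the mouse build that the study names). It begins 45 bases from the start of Ppp1r10 on the other strand, and Ppp1r10 was at a log2 fold change of −0.01 (limma adjusted p = 0.923). The start region of Mrps18b is shown because it is that of the member with the largest increase, and it holds letters of the elements that many genes of mitochondrial proteins share. This RefSeq sequence covers 250 bases before and 50 after the RefSeq start (GRCm38.p6, chr17:35916391-35916690, minus strand). That start differs from the one in the position given above, and the whole sequence lies upstream of the gene as positioned there. Capitals mark the NRF1 letters CGCANGCG and, at the very end, the ETS letters CCGGAAG read on the other strand.
Mrps18b: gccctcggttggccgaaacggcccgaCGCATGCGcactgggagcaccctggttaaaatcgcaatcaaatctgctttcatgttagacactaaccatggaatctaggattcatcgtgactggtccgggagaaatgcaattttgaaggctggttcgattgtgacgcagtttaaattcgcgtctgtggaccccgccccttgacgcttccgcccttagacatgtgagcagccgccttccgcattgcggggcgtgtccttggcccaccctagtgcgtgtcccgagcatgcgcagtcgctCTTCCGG
Of the longest coding transcript of Mrps18b, 38.6% matched the processed pseudogene Gm13552, and 59.3% overlapped the antisense gene Gm16279, which was at a mean of 0.934 FPKM. Gm13552 was 22.4, 28.0 and 24.5 FPKM without Dox and 24.2, 39.9 and 25.9 FPKM with Dox (limma adjusted p = 0.471). Reads that fit both copies may have been divided between them, so the level of Mrps18b is uncertain.

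Mrps5, whose bacterial counterpart lies at the entry of the mRNA channel, was 60.6, 65.7 and 63.5 FPKM without Dox and 72.0, 73.8 and 71.8 FPKM with Dox. The groups did not overlap, and the log2 fold change was 0.20 (SE 0.04, limma adjusted p = 0.0253). A stretch of 22.7% of its coding transcript matched the processed pseudogene Gm13328, which was at 36.8 FPKM on average with overlapping groups. Leaving out any library but the second without Dox ended the call of Mrps5, with limma adjusted p values of 0.0625 to 0.0834, while its log2 fold change stayed between 0.17 and 0.23 over the 6 omissions. Mrps12, the protein next to the decoding site, was 70.3, 76.0 and 72.7 FPKM without Dox and 74.7, 70.5 and 70.4 FPKM with Dox, with overlapping groups (log2 fold change −0.02, 95% interval −0.13 to 0.09).

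Mrps6 was the only member that fell at this threshold. Its protein is of bacterial descent and in the ribosome pairs with the S18 protein that Mrps18c encodes. It was 78.3, 71.7 and 77.8 FPKM without Dox and 50.5, 58.6 and 55.4 FPKM with Dox. Every library with Dox was below every library without, and the log2 fold change was −0.47 (SE 0.07, limma adjusted p = 0.0046). Mrps6 lies at chr16:92058270-92112227 on the plus strand. Its exons overlap those of Slc5a3, the gene of a myo-inositol transporter, on the same strand. The overlap of exons is 159 bases, 10.4% of the exon length of Mrps6 and 18.8% of its longest coding transcript. Slc5a3 was 18.4, 18.8 and 20.6 FPKM without Dox and 11.5, 12.4 and 13.4 FPKM with Dox, and it fell by 0.63 on the log2 scale (SE 0.08, limma adjusted p = 0.0036). A further gene model of the region, Gm49711, shares 305 exon bases with Mrps6 and was not analysed here. The share of each gene in the reads of the common bases was not tested.

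The start region of Mrps6 is shown because Mrps6 was the only member that fell at this threshold. The start of Slc5a3 was not located. This RefSeq sequence (GRCm38.p6, chr16:92058086-92058385, plus strand) covers the 250 bases before and the 50 after the RefSeq start of Mrps6, and no letters are in capitals, since none of the motifs searched matched.
Mrps6: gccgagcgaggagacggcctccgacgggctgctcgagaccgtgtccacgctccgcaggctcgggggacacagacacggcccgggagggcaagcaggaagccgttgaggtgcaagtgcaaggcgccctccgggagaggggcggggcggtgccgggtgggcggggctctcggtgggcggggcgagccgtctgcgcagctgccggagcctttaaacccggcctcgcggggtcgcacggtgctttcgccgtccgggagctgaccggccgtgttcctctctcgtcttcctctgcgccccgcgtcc

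Mrps30 is named after the small subunit but its protein (mL65) sits in the large subunit. It was 51.7, 51.1 and 52.7 FPKM without Dox and 61.7, 60.2 and 62.8 FPKM with Dox, with no overlap between the groups (log2 fold change 0.25, SE 0.04, limma adjusted p = 0.0076). It lies at chr13:118378381-118387252 on the minus strand, where it overlaps B430218F22Rik on the other strand, a gene at 0.876 FPKM. Mrps36 is not thought of as a ribosomal protein any more and is known as Kgd4, a subunit of the oxoglutarate dehydrogenase complex. It was 16.3, 16.1 and 20.2 FPKM without Dox and 15.4, 15.8 and 18.6 FPKM with Dox, with overlapping groups (log2 fold change −0.07, 95% interval −0.34 to 0.20). Its copy Mrps36-ps2 was at a mean of 91.2 FPKM and matched 44.1% of its coding transcript.

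Of the Mrpl genes, Mrpl38, Mrpl40 and Mrpl21 rose. Mrpl38 was 243.3, 240.4 and 240.8 FPKM without Dox and 272.6, 278.1 and 280.4 FPKM with Dox. Its libraries were tight in both groups and did not overlap, and the log2 fold change was 0.20 (SE 0.03, limma adjusted p = 0.0040). Mrpl40, like Mrpl38 a protein of the central protuberance that was gained in the mitochondrial line, was 80.6, 82.1 and 79.6 FPKM without Dox and 88.4, 92.3 and 89.3 FPKM with Dox (log2 fold change 0.16, SE 0.04, limma adjusted p = 0.0306). Mrpl21, of bacterial descent, was 29.8, 25.2 and 33.1 FPKM without Dox and 37.0, 37.5 and 39.0 FPKM with Dox (log2 fold change 0.37, SE 0.10, limma adjusted p = 0.0447). Its libraries without Dox were spread more widely than those with Dox, and the groups did not overlap. Mrpl38 lies at chr11:116131817-116138868 on the minus strand, Mrpl40 at chr16:18872018-18876862 on the minus strand and Mrpl21 at chr19:3282901-3292837 on the plus strand. In the coding transcript of Mrpl21, 49.6% matched the processed pseudogene D9Wsu149, which was not analysed here, so its level is uncertain.

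The calls of Mrpl40 and Mrpl21 did not hold with fewer libraries, although the folds stayed on the same side. Mrpl40 did not pass when any 1 of the 6 libraries was left out (limma adjusted p of 0.0576 to 0.0931), with log2 fold changes of 0.14 to 0.17. Mrpl21 passed only without the third library without Dox and was lost without each of the other 5 (0.0611 to 0.1335), with log2 fold changes of 0.27 to 0.46, the lowest without the second library without Dox. The genes called among all those tested fell from 1935 to between 1048 and 1359 in these omissions. Without the trend in limma, Mrpl40, Mrpl21 and Mrps5 did not pass (adjusted p = 0.0690, 0.0860 and 0.0556), and Mrpl21 was also lost without the minimum level and in an unmoderated model on FPKM (adjusted p = 0.0856 and 0.121). Mrpl38, Mrps18b, Mrps30 and Mrps6 passed in all 15 alternatives that were run.

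**Figure D2:**
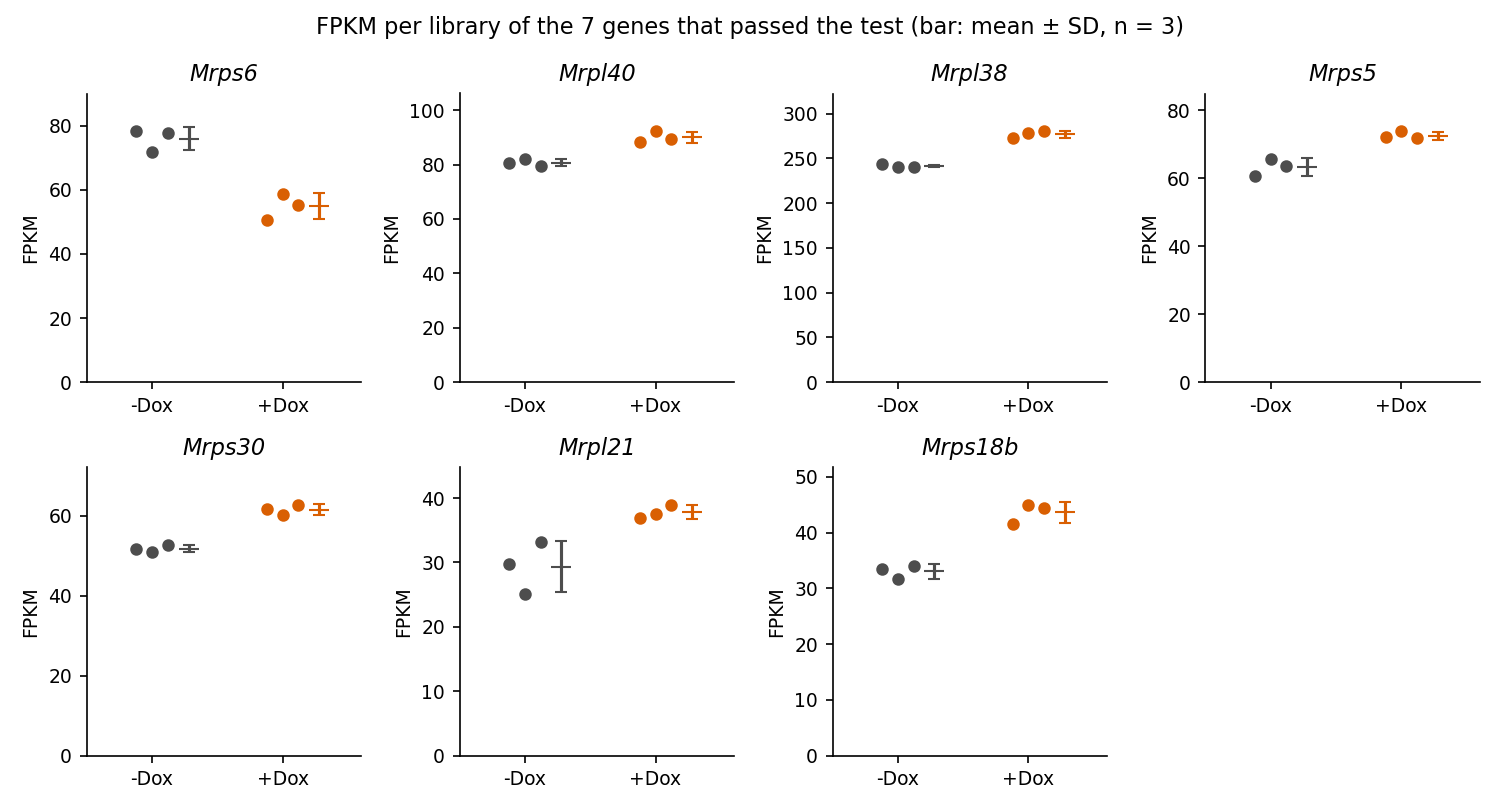
FPKM per library of the 7 genes that passed the test, without Dox (grey, -Dox) and with Dox (orange, +Dox); each dot is a library and the bar is the mean ± SD of 3. Axes start at 0, and the libraries of the groups are apart in all 7 genes, with Mrps6 alone lower with Dox.

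Among the 70 genes that did not pass, 5 were higher and 1 lower with Dox in every library. Over all 77 members, called or not, such genes numbered 11 higher and 2 lower, against 17.4% and 17.6% of all genes. The genes without a call that are named here were named after their values were seen. Mrpl46, a further protein of the central protuberance, was 33.2, 32.1 and 34.8 FPKM without Dox and 39.9, 46.5 and 37.3 FPKM with Dox (log2 fold change 0.30, SE 0.09, limma adjusted p = 0.0585). It begins 412 bases from Mrps11 on the other strand, a pair of members that share a start region, and Mrps11 was at a log2 fold change of 0.09 with overlapping groups. Mrpl13, Mrpl9, Mrpl18 and Mrpl52 had estimates of 0.13 each, with adjusted p values of 0.0642 to 0.131 (limma). Mrpl19 was 21.3, 17.4 and 17.4 FPKM without Dox and 15.2, 15.7 and 12.4 FPKM with Dox (log2 fold change −0.37, SE 0.12, limma adjusted p = 0.0864).

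The estimates of most members were precise. The median SE of the log2 fold change was 0.07, and the 95% interval lay within 1.25-fold in either direction for 56 of the 77 genes and within 1.5-fold for 73. Of the 70 genes that did not pass, 53 had an interval within 1.25-fold and 68 within 1.5-fold. The interval allowed a change of 1.5-fold or more in 4 genes. The median coefficient of variation between libraries was 4.93% without Dox and 5.73% with Dox.

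**Figure D3:**
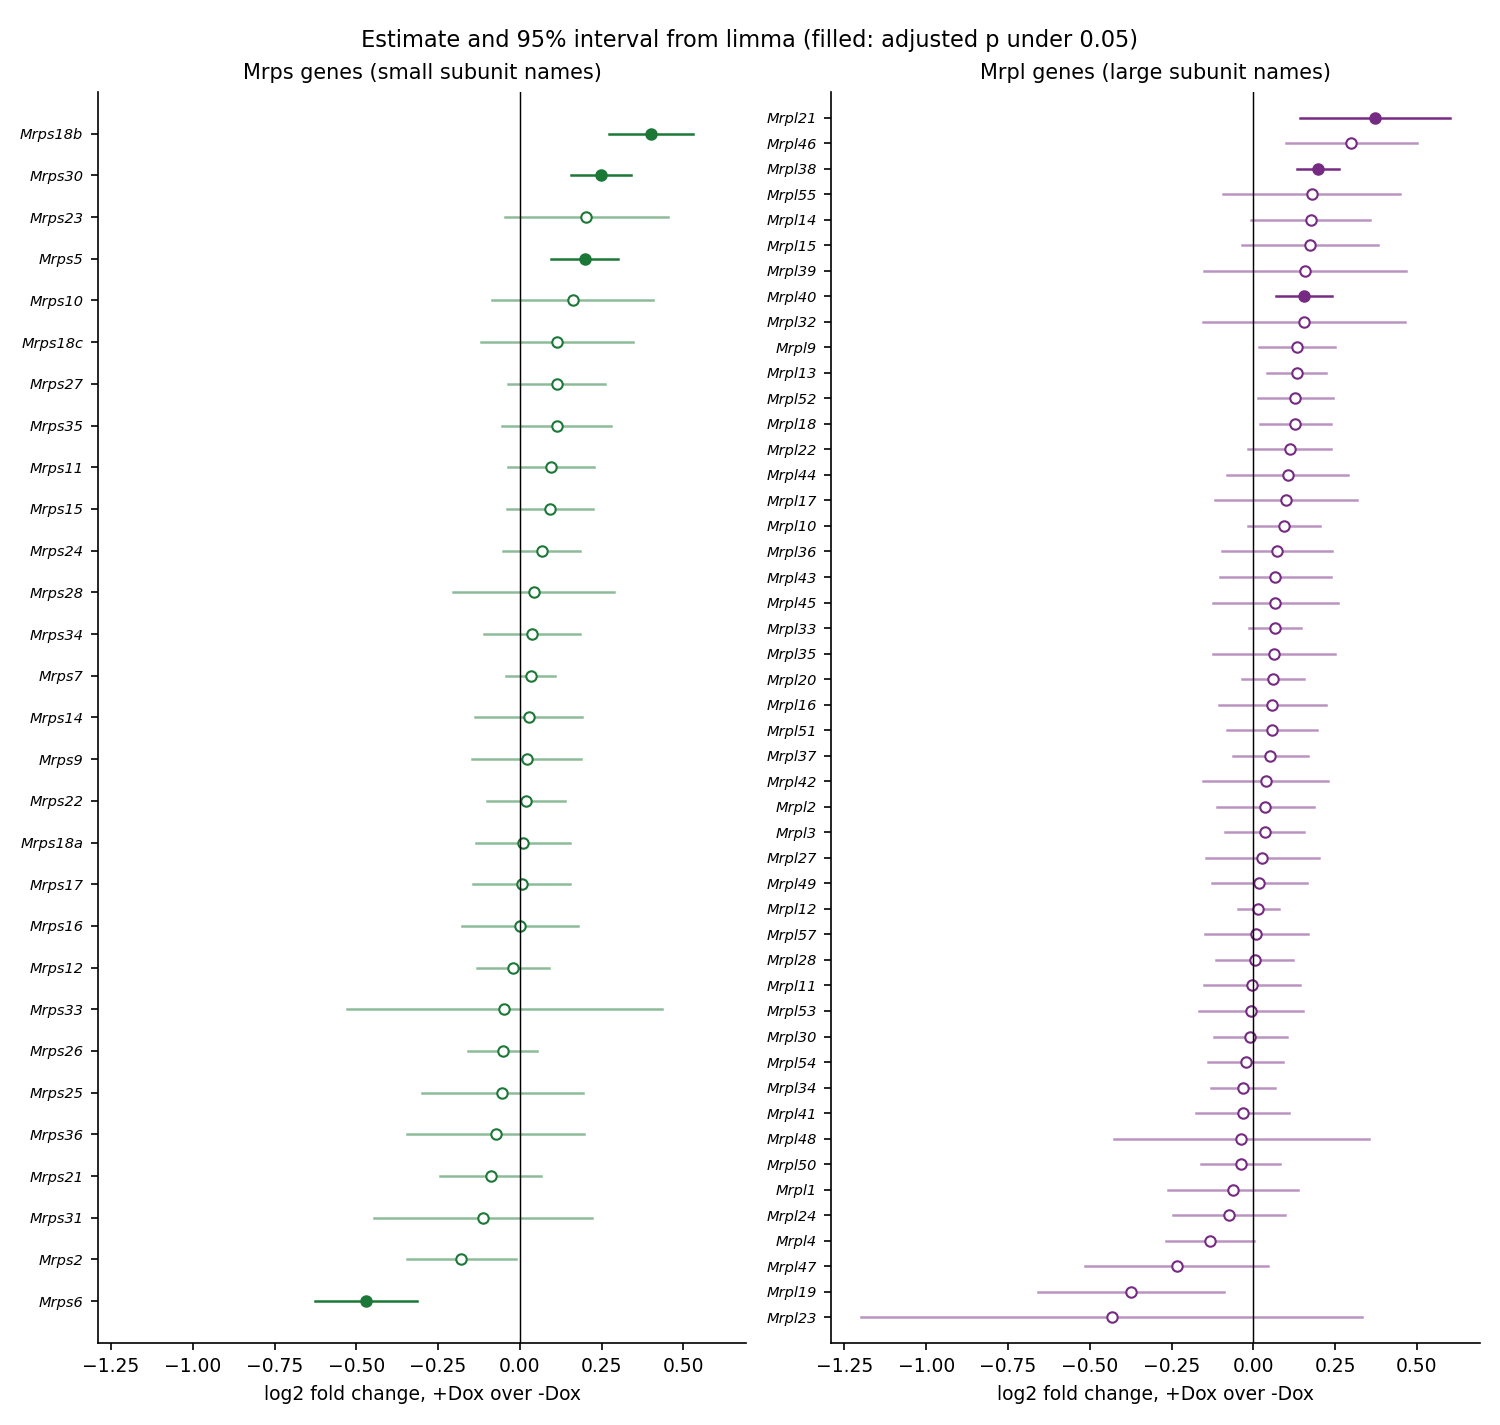
Log2 fold change with Dox over without Dox and 95% interval (limma on log2(FPKM + 0.1)) for each of the 29 Mrps genes (left) and 48 Mrpl genes (right), sorted by estimate; filled circles passed the test. Most intervals cross 0 and are short, and that of Mrpl23 at 1.69 FPKM is the longest.

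The small and the large subunit were compared by description, since their genes are not replicates. Of the 29 Mrps genes 3 rose and 1 fell (13.8% called), with a median log2 fold change of 0.03 and 20 estimates above 0. Of the 48 Mrpl genes 3 rose and 0 fell (6.25% called), with a median of 0.06 and 34 estimates above 0. Of all genes tested, 15% were called (7.06% higher and 7.97% lower), above the called share of each group of members given here. At an unadjusted p under 0.05 there were 5 Mrps genes (17.2%) and 9 Mrpl genes (18.8%), both shares below that of all genes tested. Over the omission of single libraries the median was 0.0157 to 0.0529 for the Mrps genes and 0.0228 to 0.0714 for the Mrpl genes, and without the third library without Dox their order turned (0.0529 and 0.0501). The median between libraries varied by an SD of 0.03 for both on the log2 scale. Grouped by where the protein sits, the small subunit has 26 members (2 higher, 1 lower, 11.5% called, median 0.03). The large subunit has 50 (4 higher, 0 lower, 8% called, median 0.06). Classed by the uniform names of ribosomal proteins, the 46 with bacterial counterparts had 2 higher and 1 lower (6.52% called), with a median of 0.04. The 30 with names of mitochondrial proteins, Mrps18a and Mrps18b among them, had 4 higher and 0 lower (13.3% called), also with a median of 0.04.

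Summed over the Mrps genes, the libraries held 2077, 2167 and 2183 FPKM without Dox and 2141, 2224 and 2173 FPKM with Dox, so the groups overlapped (+1.75%). Summed over the Mrpl genes they held 3928, 4039 and 4009.6 FPKM without Dox and 4144, 4254 and 4115 FPKM with Dox, and every library with Dox was above every library without (+4.48%). The ratio of the Mrps to the Mrpl sum was 0.529, 0.537 and 0.544 without Dox and 0.517, 0.523 and 0.528 with Dox. These groups did not overlap, but the closest libraries differed only in the fourth decimal (0.5288 and 0.5282). Without Mrps21 and Mrpl12, the largest members, the ratio was 0.523 to 0.5365 without Dox and 0.518 to 0.519 with Dox, and by the subunit in which the protein sits it was 0.454 to 0.473 and 0.449 to 0.453. No test was made of these sums, in which the most abundant genes weigh most.

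**Figure D4:**
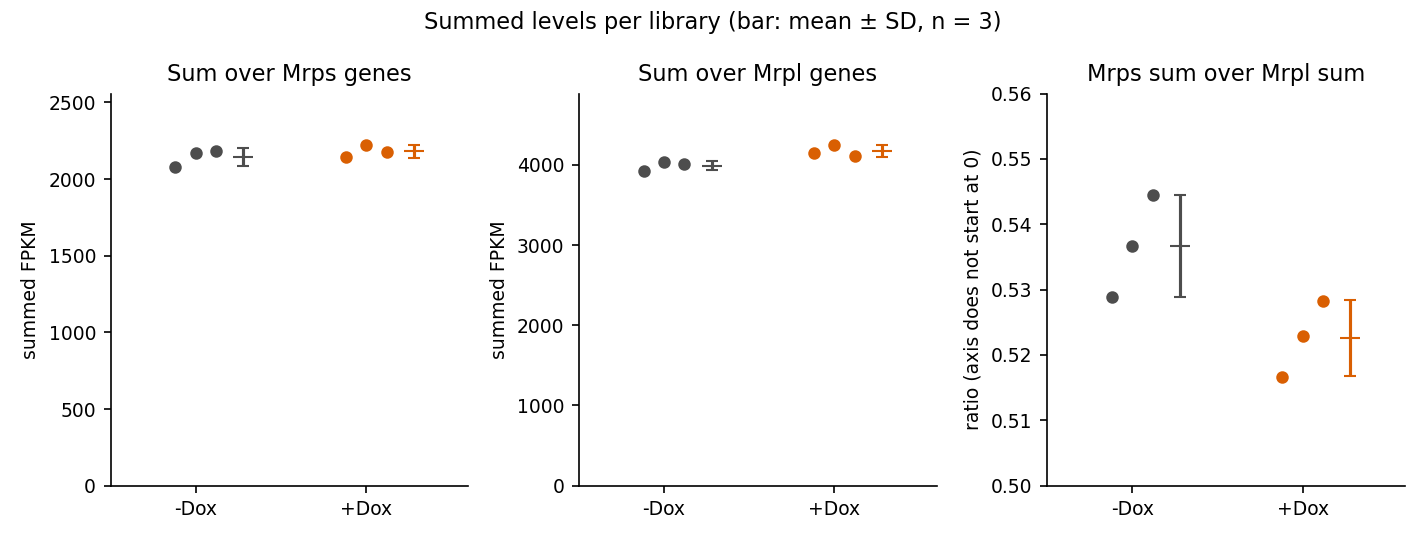
FPKM summed over the 29 Mrps genes (left) and the 48 Mrpl genes (middle), and the ratio of both sums (right, on an axis that does not start at 0), per library without Dox (grey, -Dox) and with Dox (orange, +Dox), with the mean ± SD of 3 as a bar. The Mrps sums overlap, the Mrpl sums lie at 3928 to 4039 FPKM without Dox and 4115 to 4254 FPKM with Dox, and the ratios lie side by side without overlap.

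Since the vector expresses miR-200c, the longest annotated 3′ UTR of each gene was searched for the seed match of miR-200c. Which 3′ UTR forms these cells express was not tested. The mature miR-200c-3p of RefSeq (GRCm38.p6, chr6:124718324-124718346, minus strand) is shown with its seed, bases 2 to 8, in capitals.
miR-200c-3p: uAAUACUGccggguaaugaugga
The letters that pair with the seed, CAGTATT, occurred in the 3′ UTR of 4 of 76 members (5.26%), against 16.9% of 10806 coding genes tested. The members' 3′ UTRs were also shorter, with a median of 479 bases against 1386. The 4 sites are shown with 11 bases on each side and the match in capitals.
Mrps30: atcgctaataaCAGTATTgggctatcttt
Mrps35: cagccccaatcCAGTATTtttaatttcca
Mrpl20: caccactaagaCAGTATTcctgagatgtg
Mrpl51: aagatcacaccCAGTATTacccctgtgtg
On GRCm38 they lie at chr13:118380061-118380089 (minus strand), chr6:147071903-147071931 (plus strand), chr4:155808704-155809701 (plus strand, across an exon junction) and chr6:125193986-125194014 (plus strand). None of the 4 genes was lower with Dox: Mrps30 rose, and Mrps35, Mrpl20 and Mrpl51 had log2 fold changes of 0.11, 0.06 and 0.06 with overlapping groups. A match of letters does not show that the site is used.

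The start regions of the members share features that the choice by symbol did not use. A coding gene begins within 1000 bases on the other strand for 33 of 76 members (43.4%), against 17.97% of 10847 coding genes tested. Of these 33 neighbours 3 were below the minimum level, and of the 30 tested 1 passed (3.33%, against 15% of all genes tested), Eme1 beside Mrpl27, at a log2 fold change of 0.30 (limma adjusted p = 0.0372), while Mrpl27 was at 0.03. The neighbours of called members were at a log2 fold change of 0.01 for Hira beside Mrpl40 and 0.01 for Ighmbp2 beside Mrpl21, with overlapping groups for both. Zfp661 beside Mrps5 was at −0.79 (limma adjusted p = 0.172), with no overlap, at a mean of 1.001 FPKM.

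RefSeq start regions of 300 bases matched 68 of the 77 members by symbol, and 8548 of the genes tested. They were searched on both strands for the letters of 3 factors known to act on genes of mitochondrial proteins, and in no member did matches of different motifs overlap. The NRF1 letters CGCANGCG were in 29.4% of the members and 20.9% of the genes tested. The ETS letters CCGGAAG, which GABP binds, were in 36.8% and 21.6%, and the YY1 letters AAGATGGC in 17.6% and 5.65%. At least 1 of the 3 motifs was in 43 members (63.2%) and in 40.7% of the genes tested. The median log2 fold change was 0.08 in the 20 members with NRF1 letters (1 higher) and 0.03 in the 48 without (4 higher, 1 lower). It was 0.03 with and 0.04 without ETS letters, and 0.06 with and 0.03 without YY1 letters. These splits were not tested, and the matches describe letters only.

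Of 76 members compared, 35 share at least 10% of their longest coding transcript with another gene at 95% identity, and 18 of them with a processed pseudogene. Those that share more than 50% with a processed pseudogene were, besides Mrpl23, Mrpl22 (86% shared with Gm6997, which was not analysed here), Mrpl42 (64.4%, Gm6419, at 113 FPKM), Mrpl27 (59.1%, Gm6304, 50.8 FPKM), Mrps21 (54.1%, Gm6181, 43.6 FPKM) and Mrps10 (50.1%, AC154457.3, not analysed here). Where genes overlap on the chromosome, Mrpl53 shares 100% with the coding model Gm42688 on the same strand (3.07 FPKM), Mrps25 shares 75.7% with Nr2c2 on the other strand (19.0 FPKM) and Mrps34 shares 59.8% with Mapk8ip3, also on the other strand (36.3 FPKM). Gm6181 was 45.1, 41.4 and 57.4 FPKM without Dox and 40.05, 40.1 and 37.6 FPKM with Dox (limma adjusted p = 0.165), the same direction as the estimate of Mrps21 (log2 fold change −0.09, limma adjusted p = 0.427). Which reads were assigned to which copy was not tested.

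Other genes that mitochondrial translation needs were taken from lists of general knowledge, 8 lists that hold 107 genes of the table. Their counts stand against 7.06% higher and 7.97% lower among all genes tested. The cytosolic ribosomal protein genes, given beside them, had 2 higher and 0 lower of 77 tested and a median log2 fold change of 0.07, with 65 estimates above 0. Mitoribosomal proteins under other symbols (6 genes, such as Dap3 and Ptcd3) and proteins of mitoribosome assembly and rRNA modification (25) had no gene that passed, with medians of 0.07 and 0.09. At an unadjusted p under 0.05 each of these lists had 3 (50% and 12%, against 29.2% of all genes tested). None of the 17 mitochondrial aminoacyl-tRNA synthetases, which load the tRNAs of the organelle, passed either (4 at an unadjusted p under 0.05, or 23.5%, median 0.15).

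Among 14 mitochondrial translation factors, 13 did not pass and 2810006K23Rik fell, from 14.1, 13.7 and 13.2 FPKM to 9.83, 9.24 and 10.1 FPKM (log2 fold change −0.48, SE 0.07, limma adjusted p = 0.0057). The elongation factor Tufm, which brings the loaded tRNA to the ribosome, was at a log2 fold change of 0.19 (limma adjusted p = 0.122). Among 11 genes of mitochondrial DNA transcription and RNA binding, Tefm, the transcription elongation factor, rose from 8.22 to 10.1 FPKM to 11.1 to 12.2 FPKM (log2 fold change 0.38, SE 0.10, limma adjusted p = 0.0409). The call of Tefm held in 6 of 15 alternatives and was lost when any library but the third without Dox was left out (adjusted p up to 0.131). Tfam, which packages the mitochondrial genome, was at 0.05 and Polrmt, its RNA polymerase, at −0.18 on the log2 scale (limma adjusted p = 0.842 and 0.195).

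Of 11 mitochondrial chaperones and proteases, the chaperones Hspd1 and Hspa9 rose and none fell. At an unadjusted p under 0.05 there were 7 (63.6%, against 29.2% of all genes tested). The groups did not overlap in 8 that were higher and 0 that were lower, against 17.4% and 17.6% of all genes. Their median level was 83.7 FPKM, against 22.8 FPKM for all genes tested. Hspd1 was 325.7, 319.7 and 324.3 FPKM without Dox and 382.4, 404.8 and 371.7 FPKM with Dox (log2 fold change 0.26, SE 0.04, limma adjusted p = 0.0048), and Hspa9 was at a log2 fold change of 0.13 (SE 0.03, limma adjusted p = 0.0163). Lonp1, a protease of the matrix, was higher in every library with Dox but did not pass (log2 fold change 0.13, limma adjusted p = 0.0565). Of the regulators of nuclear genes for mitochondrial proteins, 8 of 10 passed the minimum level. GABP binds the ETS letters as a complex of Gabpa, which holds the DNA, and a partner such as Gabpb1. Gabpa fell from 30.5, 29.5 and 30.6 FPKM to 26.9, 24.9 and 23.5 FPKM (log2 fold change −0.27, SE 0.06, limma adjusted p = 0.0315), and Gabpb1 rose from 28.96, 26.7 and 28.3 FPKM to 35.5, 36.2 and 38.0 FPKM (log2 fold change 0.39, SE 0.05, limma adjusted p = 0.0048). The call of Gabpa held in 7 of 15 alternatives and was lost without any library but the first with Dox (adjusted p up to 0.0968). That of Hspa9 held in 10 of 15 and was lost in limma without the trend. It was also lost without the first or the second library without Dox or the first or the third with Dox (up to 0.0940). Nrf1, Yy1 and Myc had estimates of 0.08 to 0.10, none of which passed.

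Of 14 genes of the ATF4 stress response, which is known to follow faults in mitochondrial translation, 13 passed the minimum level, and 7 rose and 0 fell (53.8% called, against 15% of all genes tested). The median level of this list was 93.3 FPKM and its median SE 0.034, against 22.8 FPKM and 0.0815 for all genes tested. Smaller changes can therefore pass in this list, and the shares are not at like precision. This list was drawn up with results of these libraries known, so its count is not independent evidence of its direction. Atf4 itself, the transcription factor, was 342.8, 334.8 and 345.9 FPKM without Dox and 379, 380.5 and 384 FPKM with Dox (log2 fold change 0.16, SE 0.03, limma adjusted p = 0.0083). Its call was lost in limma without the trend (adjusted p = 0.0542) and held in the other 14 alternatives. The enzymes Mthfd2 and Shmt2 of mitochondrial folate metabolism rose by 0.27 and 0.16 on the log2 scale (limma adjusted p = 0.0024 and 0.0129), and Aldh18a1 of proline synthesis rose by 0.29 (0.0038). Trib3, Asns and Pck2 rose by 0.28, 0.11 and 0.19 (limma adjusted p = 0.0179, 0.0351 and 0.0208). Ddit3, a stress factor of the same response, was lower in every library with Dox but did not pass (log2 fold change −0.17, limma adjusted p = 0.0629). Asns did not pass without any 1 of the 6 libraries, and Pck2 without any but the third without Dox. Trib3 did not pass without the third without Dox or any with Dox, and Shmt2 without the third with Dox. Asns was also lost under quantile normalization, in limma without the trend and with the replicate block. The block also ended the call of Pck2, the unmoderated model that of Trib3 and limma without the trend that of Shmt2. Of the 15 alternatives, Asns held in 6, Pck2 in 9, Trib3 in 10 and Shmt2 in 13. The adjusted p reached 0.129, 0.0730, 0.0641 and 0.0664 over these limma and unmoderated fits.

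**Figure D5:**
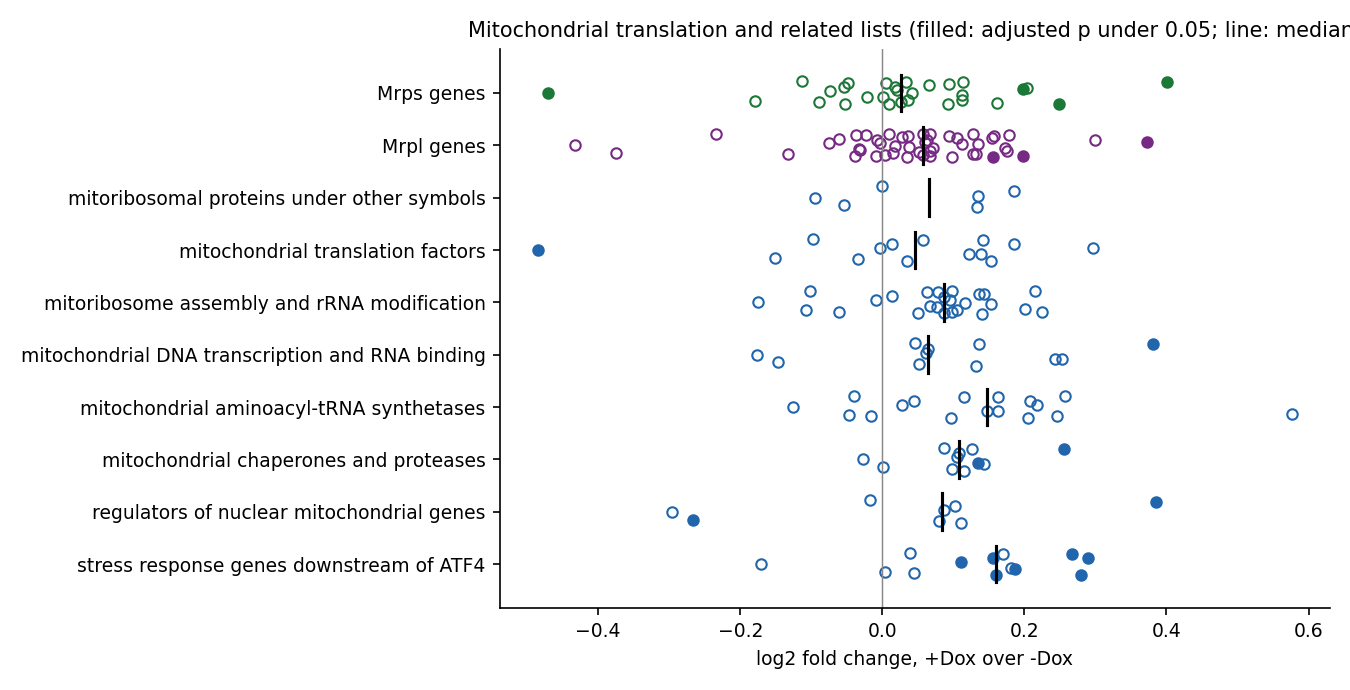
Log2 fold change with Dox over without Dox for the Mrps and Mrpl genes and for 8 lists of related genes (rows); each circle is a gene, filled where it passed the test, and the black line is the median. Medians lie slightly above 0 in every row, from 0.03 for the Mrps genes to 0.16 for the ATF4 genes, and the ATF4 row holds the most filled circles.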

How the data were processed

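mRNA of 3 cultures without Dox and 3 cultures with Dox was compared, with groups and replicate numbers taken from the sample labels. The authors sequenced stranded libraries with single reads, mapped them with gSNAP to GRCm38.p6 or FVB_NJ_v1 and deposited FPKM values per gene and library that Cufflinks estimated; versions and the strand setting are not given in the sources used here. The table also holds the authors' group means, fold changes, p-values and q-values, which were not used. It has 43611 rows for 43548 gene identifiers, and 63 repeated rows with the lower mean were dropped. A placeholder (999999999) in 6 cells, none in a member, was read as missing.

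The test ran in limma 3.58.1 (R 4.3.3; lmFit, then eBayes with a trend) over the 12879 genes whose mean reached 1 FPKM, after taking log2(FPKM + 0.1) (group as the only term, two-sided, with Benjamini-Hochberg adjustment at 0.05). Fold changes are on that scale, which understates those of low genes. With 3 against 3 libraries an exact permutation test could not reach 0.05, so none was run. The code was tested on simulated data of 12875 genes, of which 200 were changed. It recovered 0% of the changed genes at a log2 change of 0.2, 39.5% at 0.4 and 78.5% at 1. Fewer genes were changed there than were called here, so these shares do not carry over directly. Medians, sums and shares over the members were described without a test. Tables and plots were made in Python 3.11.15 (matplotlib 3.10.9, pandas 2.3.3, numpy 2.4.6). Positions, exons and 3′ UTRs come from GENCODE M21 (GRCm38), in which the identifier of Mrpl33 was not found. Start regions and miR-200c come from RefSeq tables of GRCm38.p6, and shared sequence was sought with BLAST 2.17.0 (95% identity or more, 50 bases or more).

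The members, the lists and the rule for named genes were chosen with earlier results of these data known. Named were the members that passed, the 2 highest and 2 lowest of the Mrps and of the Mrpl genes, Mrps18a, Mrps30, Mrps36 and Mrps12, and the genes of the other lists that passed, with Zeb1, Zeb2 and Cdh1 for the induction. Further genes were named after their values were seen. Alternatives were other pseudocounts, filters, scalings and variance models, the replicate number as a block and leaving out single libraries.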

Additional observations from a re-analysis of the deposited data

How the results depend on the processing

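Mrpl38, Mrps18b, Mrps30 and Mrps6 passed under all 15 alternatives, whereas Mrps5 passed in 8, Mrpl21 in 7 and Mrpl40 in 7 of them. The count of members called was 6 to 8 under other pseudocounts, filters, scalings and the unmoderated model, of which scaling to the same median added Mrpl46. Without the trend of limma it was 4 (3 higher, 1 lower), and 1 gene of the other lists was lower in that model, as in the unmoderated model on FPKM, instead of 2. Over the omission of single libraries, 4 to 5 members were called, 3 to 4 higher and 1 to 2 lower, with Mrps2 and Mrpl4 added as lower (without MinusDox replicate 1 and PlusDox replicate 2) and Mrpl46 as higher (without PlusDox replicate 3). The median log2 fold change of the Mrpl genes was then 0.0228 to 0.0714, lowest without PlusDox replicate 2, and 6 to 10 genes of the other lists were higher and 1 to 2 lower. Of the members that did not pass, only Mrps12, Mrps18a and Mrps36 were followed gene by gene for a change of sign. The sign of the log2 fold change turned in these omissions for all of them: Mrps12 (−0.05011 to 0.007707), Mrps18a (−0.0263 to 0.06886) and Mrps36 (−0.1575 to 0.03192). Whether it turned for the other members that did not pass was not examined. All genes called numbered 1048 to 1992 over the alternatives, against 1935; the fewest were called with fewer samples. The causes of the other shifts were not tested. The alternatives for the other lists, besides the replicate block, were chosen after seeing the data.

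Deviations from the group mean correlated at 0.02865, 0.03591 and −0.007586 between libraries with the same number, over 12875 genes. Between libraries with different numbers the mean correlation was −0.0095. The ratio of the Mrps to the Mrpl sum rose with the replicate number in both groups (0.5288, 0.5366 and 0.5444 without Dox, 0.5167, 0.5229 and 0.5282 with Dox). Low correlations over all genes cannot exclude that same-numbered libraries were paired. With the replicate block 5 members were called (4 higher, 1 lower), without Mrps5 and Mrpl40, and 1337 genes in all. Of the other lists 8 genes were then higher and 1 lower. Read depth is unknown, so the precision of low genes such as Mrpl23 cannot be derived from counts, and the small changes here rest on 3 cultures per group of 1 clone.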
